A study of Mus musculus with 9 samples.

Results

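The 29 genes described here make cholesterol and fatty acids or control and carry them. They were taken by symbol from the deposited table of 56859 named genes, and all 29 were found and passed the filter on low counts, among 18005 genes tested. They comprise 8 genes of the steps from acetyl-CoA to squalene, 10 of the steps from squalene to cholesterol, 5 that encode or control the SREBP transcription factors, 1 sterol carrier and 5 genes of fatty acid synthesis and its supply of carbon and reducing power. Of the other genes of the pathway 40 are described at the end, and the rest were not analysed here.

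The study compared back skin of wild-type (WT) SPF Balb/c mice aged 6 to 8 weeks by RNA sequencing, with 3 libraries in each of 3 groups, and all mice had been shaved. The first group received IMQ cream over 7 days and a bergapten gel for 2 days ("bergapten-treated IMQ skin"), the second IMQ over 7 days ("IMQ skin") and the third vaseline over 7 days ("vaseline skin"). IMQ is the usual short form of imiquimod, a Toll-like receptor agonist whose cream gives mice a psoriasis-like dermatitis, and bergapten belongs to the furanocoumarins, which plants such as bergamot make. The labels name no IMQ group given a gel without bergapten, so bergapten and its gel cannot be told apart. They do not say when in the course of IMQ the gel was given, nor whether each library is a separate mouse, and p-values therefore speak only to the spread among the libraries, which may be technical.

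Cholesterol is built from acetyl-CoA by way of mevalonate, isoprenoid units and squalene, and squalene is then closed into a ring to give lanosterol and trimmed to cholesterol. Fatty acid synthesis draws on the same cytosolic acetyl-CoA. When membranes of the endoplasmic reticulum hold little sterol, SCAP escorts the SREBP factors to the Golgi, where they are cut so that they can enter the nucleus, and when sterol is plentiful INSIG proteins hold SCAP back. SREBP-2 mainly drives the cholesterol genes and SREBP-1c mainly the fatty acid genes, usually together with NF-Y, a factor that binds CCAAT. In skin these lipids supply the barrier of the cornified layer, the sebum of the sebaceous glands and the stores of dermal fat cells.

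Promoters of these genes are shown because the pathway is known to be read through letters in promoters, though not each promoter held all the letters searched. RefSeq promoters (assembly GRCm38.p6, the C57BL/6J reference and not the Balb/c genome) were matched by symbol for 25 of the 29 genes, in 34 entries, and the 250 bases before the start site were searched on both strands for CCAAT, for the sterol regulatory element TCACNCCAC and for the E-box CACGTG. The 6 printed here belong to genes named again below: Hmgcs1 (chr13:119690101-119690350, plus strand), Mvk (chr5:114444019-114444268, plus strand), Sc5d (chr9:42264301-42264550, minus strand), Lss (chr10:76531355-76531604, plus strand), Insig1 (chr5:28071162-28071411, plus strand) and Fasn (chr11:120824548-120824797, minus strand). They run 5′ to 3′ towards the start site, and capitals mark matches to these motifs on either strand.
Hmgcs1: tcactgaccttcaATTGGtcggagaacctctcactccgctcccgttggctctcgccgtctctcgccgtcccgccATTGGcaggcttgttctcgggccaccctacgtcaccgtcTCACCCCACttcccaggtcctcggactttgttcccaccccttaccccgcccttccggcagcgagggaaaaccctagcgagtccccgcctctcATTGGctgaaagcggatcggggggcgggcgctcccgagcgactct
Mvk: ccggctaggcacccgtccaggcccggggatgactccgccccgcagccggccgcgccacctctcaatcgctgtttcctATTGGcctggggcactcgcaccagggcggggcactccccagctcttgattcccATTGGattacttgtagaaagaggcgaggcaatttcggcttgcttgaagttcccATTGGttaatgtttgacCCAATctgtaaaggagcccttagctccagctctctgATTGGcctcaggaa
Sc5d: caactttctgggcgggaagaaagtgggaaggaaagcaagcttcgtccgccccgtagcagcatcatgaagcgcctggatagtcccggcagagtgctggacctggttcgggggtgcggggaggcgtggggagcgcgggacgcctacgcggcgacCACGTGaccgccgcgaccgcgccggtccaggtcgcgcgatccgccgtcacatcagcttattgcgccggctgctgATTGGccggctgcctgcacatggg
Lss: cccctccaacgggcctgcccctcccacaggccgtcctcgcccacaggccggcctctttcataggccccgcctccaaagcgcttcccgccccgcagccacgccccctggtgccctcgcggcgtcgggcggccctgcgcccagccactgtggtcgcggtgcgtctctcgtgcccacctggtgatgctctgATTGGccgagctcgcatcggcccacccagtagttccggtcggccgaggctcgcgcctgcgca
Insig1: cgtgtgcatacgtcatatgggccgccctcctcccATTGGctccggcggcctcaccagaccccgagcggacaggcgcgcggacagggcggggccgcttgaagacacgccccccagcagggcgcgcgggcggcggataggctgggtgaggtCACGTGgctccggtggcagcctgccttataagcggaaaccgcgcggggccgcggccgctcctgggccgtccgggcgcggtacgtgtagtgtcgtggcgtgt
Fasn: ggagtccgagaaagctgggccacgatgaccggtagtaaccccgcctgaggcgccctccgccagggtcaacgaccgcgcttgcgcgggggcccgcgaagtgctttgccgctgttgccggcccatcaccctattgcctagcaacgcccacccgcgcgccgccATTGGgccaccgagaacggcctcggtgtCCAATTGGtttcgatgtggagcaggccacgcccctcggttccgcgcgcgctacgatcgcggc

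CCAAT stood in 22 of the 34 member promoters (64.7%), against 33.8% of all 32851 RefSeq promoters of the same length, and 21 of the 25 matched genes had it in at least 1 entry. Of these 25 genes 6 had more than 1 entry and so more chances of a match, and the share by gene was not taken over all genes. The 41 CCAAT matches lay 12 to 237 bases before the start site, with a median of 62. In Mvk 5 matches stood in the window, at 14 to 173 bases, and in Fasn 3, of which those at 59 and 62 bases overlap as a CCAAT read on each strand. The sterol regulatory element was matched in Hmgcs1 alone of the 25 genes (2.94% of member promoters and 1.05% of all). Only the spelling TCACNCCAC was searched, so elements spelled otherwise or lying outside the window would be missed. The E-box was matched in Dhcr7, Hsd17b7, Insig1, Sc5d and Scap (14.7% of member promoters and 6.02% of all) and its letters cannot overlap those of CCAAT. Matched letters are a description of the sequence and not of binding. CCAAT did not sort the matched genes by their change in IMQ skin given below. It was found, in at least 1 entry, in 9 of the 10 matched genes that fell, in 4 of 5 that rose and in 8 of 10 that did not pass the test. The E-box was found in 2 of the 10 that fell, 2 of the 5 that rose and 1 of the 10 that did not pass. Fdps, Fdft1, Sqle and Stard4, which all rose, had no promoter entry and are missing from these counts.

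Counted reads numbered 15855439 to 19862905 in bergapten-treated IMQ skin, 18890579 to 19456060 in IMQ skin and 16080479 to 18757911 in vaseline skin. Levels are given as CPM, read counts brought to a common library size with TMM factors, listed for replicates 1, 2 and 3 in turn, and a change was called where edgeR's quasi-likelihood test gave an adjusted p under 0.05 over all 18005 genes. IMQ replicate 2 stood apart from the other 8 libraries on the second principal component of all genes, at 71.1, against -33.3 to 18.8 in the others. Replicate 2 also held 162 summed CPM of 8 proliferation genes, against 421 and 446 in the other IMQ libraries. It held 895 summed CPM of 9 adipocyte genes against 4132 and 2335, and 2693 summed CPM of 10 sebaceous genes against 661 and 577. Most of that sebaceous sum came from Krt79 alone. Counts over the gene lists are therefore also given without IMQ replicate 2. Those over the 29 genes were planned. Those over their steps, the other pathway genes and the markers were an alternative chosen after seeing the data. These counts apply edgeR's test to the other 8 libraries, with the filter and scaling redone.

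In IMQ skin the genes changed in both directions. Of the 29 genes 9 rose and 10 fell against vaseline skin, where 23% of all genes tested rose and 20.2% fell (43.2% were called in all). Their median log2 fold change was -0.07, beside 0.03 over all genes tested, and single genes ranged from -2.06 to 1.54. Levels did not overlap between the 2 groups for 21 of the 29 genes (72.4%), against 52.3% of all genes tested. Without IMQ replicate 2, 9 rose and 8 fell, and with library sizes alone as the scale 11 rose and 7 fell. In whole skin, fewer cells of a type and less RNA per cell cannot be told apart.

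**Figure D1:**
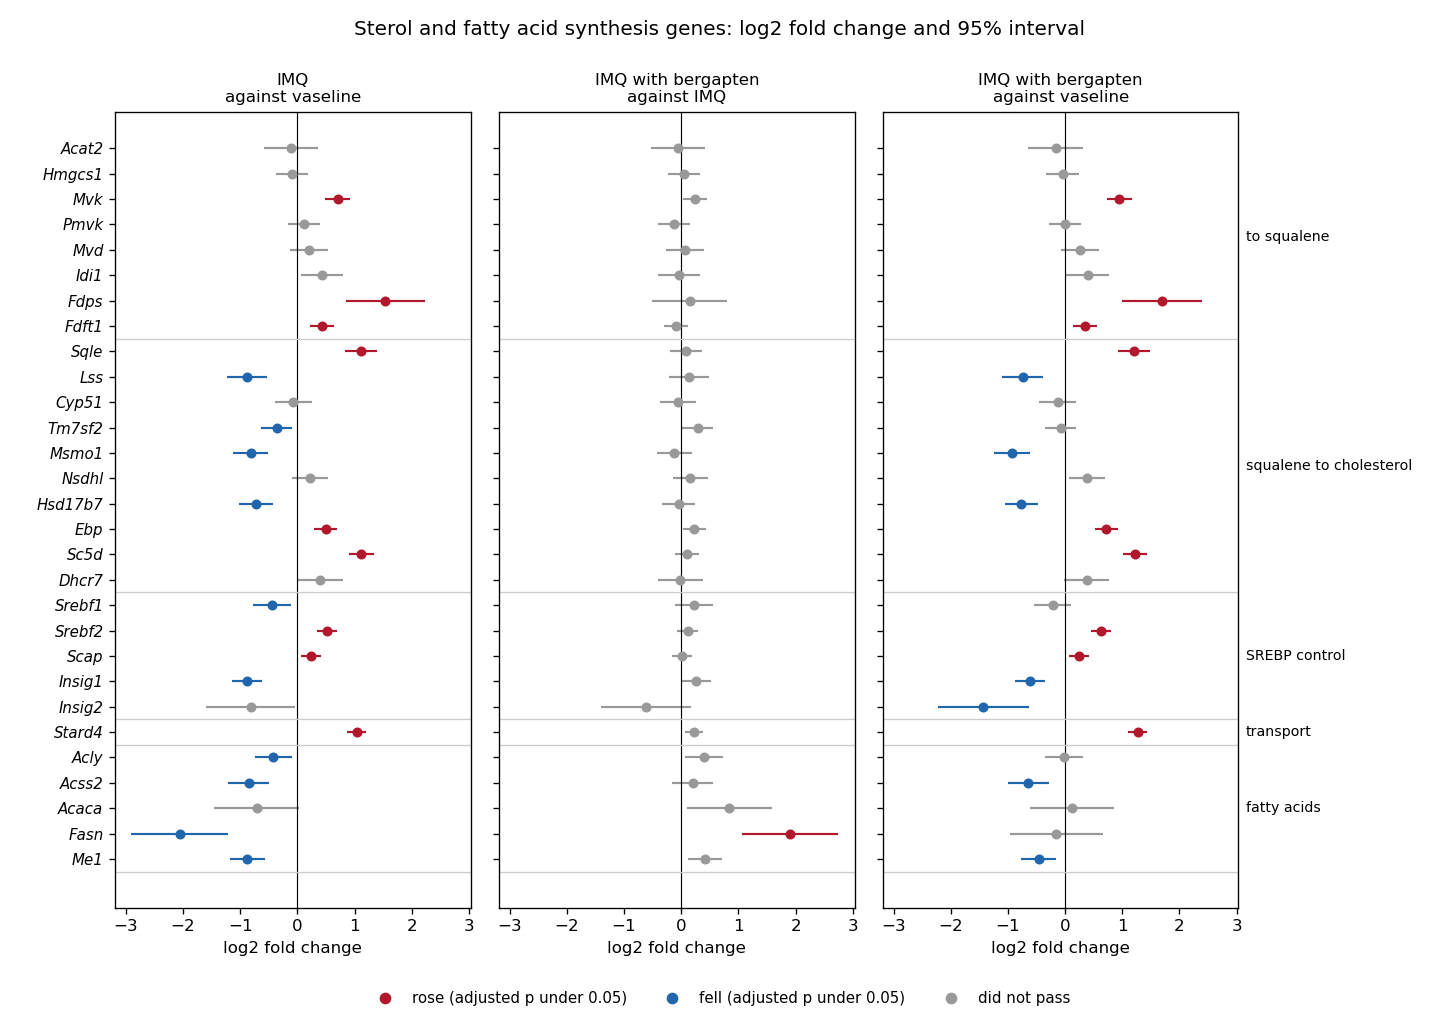
Log2 fold change (x axis) and its 95% interval for each of the 29 genes (rows, in pathway order), in 3 comparisons from left to right. Red points rose, blue points fell and grey points did not pass an adjusted p of 0.05. Red and blue are interleaved among the sterol enzymes in the left and right panels, and Fasn is the only coloured point in the middle panel.

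Of the 8 genes of the steps to squalene, 3 rose in IMQ skin and 0 fell, also with 0 at an unadjusted p under 0.05 in that direction and 0 by DESeq2, and without IMQ replicate 2 the count was 4 that rose and 0 that fell. Mvk, which phosphorylates mevalonate (ENSMUSG00000041939, chr5:114582330-114598652, GRCm39 as are all gene positions here), stood at 68.7, 81.3 and 85.3 CPM in bergapten-treated IMQ skin, 67.7, 67.2 and 64.4 CPM in IMQ skin and 40.0, 43.9 and 38.3 CPM in vaseline skin. All 3 IMQ libraries lay above all vaseline libraries, and Mvk rose (log2 fold change 0.71, SE 0.10, adjusted p = 0.000284). Fdft1, squalene synthase, which joins farnesyl units into squalene, stood at 93.6, 116 and 111 CPM in bergapten-treated IMQ skin, 116, 117 and 109 CPM in IMQ skin and 87, 87.1 and 78.1 CPM in vaseline skin. It rose by less (log2 fold change 0.44, SE 0.10, adjusted p = 0.00427), and 774 bases of it are overlapped on the opposite strand by Ctsb, a cathepsin gene with a mean of 28816 reads in IMQ skin and 19918 in vaseline skin, so that reads of the 2 genes cannot be told apart there unless strand was used.

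Fdps makes farnesyl diphosphate and had few reads, with 7.35, 10.7 and 11.2 CPM in bergapten-treated IMQ skin, 10.1, 5.82 and 10.5 CPM in IMQ skin and 2.08, 4.18 and 2.85 CPM in vaseline skin. It rose (log2 fold change 1.54, SE 0.31, adjusted p = 0.00292) without overlap between the groups. Its level is uncertain because the table lists Gm43738, a gene of the same strand, over 7512 of its bases, and how reads lying in both were counted is not given in the sources used here.

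The other 5 genes of these steps did not pass. Hmgcs1, which makes the HMG-CoA that precedes mevalonate, stood at 192, 260.1 and 238 CPM in bergapten-treated IMQ skin, 249, 203 and 213 CPM in IMQ skin and 215, 241 and 256 CPM in vaseline skin, and the groups overlapped (log2 fold change -0.10, SE 0.13, adjusted p = 0.569; 95% interval -0.38 to 0.19). Its promoter is the one with a match to the searched spelling of the sterol regulatory element. Idi1, which interconverts the isoprenoid units, stood at 75.7, 111 and 99.5 CPM in bergapten-treated IMQ skin, 111, 75.7 and 107 CPM in IMQ skin and 68.3, 75 and 74.8 CPM in vaseline skin. Its IMQ libraries lay above all vaseline libraries, with replicate 2 just above (log2 fold change 0.43, SE 0.17, adjusted p = 0.0608), and without that replicate the adjusted p was 0.0051. The table lists 5 pseudogenes of Idi1, of which Idi1-ps1 held a mean of 16 reads in IMQ skin and 13.3 reads in vaseline skin. Acat2, which condenses acetyl-CoA, had a log2 fold change of -0.11 (adjusted p = 0.698). Pmvk, which adds the next phosphate after Mvk, had 0.12 (adjusted p = 0.483), and Mvd, which releases carbon dioxide from mevalonate diphosphate, had 0.20 (adjusted p = 0.309).

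Of the 10 genes of the steps from squalene to cholesterol, 3 rose and 4 fell, and without IMQ replicate 2 the count was 3 and 3. Sqle, which oxidises squalene and is a rate-limiting enzyme of the later pathway (ENSMUSG00000022351, chr15:59186926-59203041), stood at 173, 231 and 224 CPM in bergapten-treated IMQ skin, 217, 185 and 189.5 CPM in IMQ skin and 89, 83.8 and 100.2 CPM in vaseline skin. Every IMQ library held more than every vaseline library, a mean 2.17-fold higher by the fit (log2 fold change 1.12, SE 0.13, adjusted p = 8.11e-05). Sc5d, a late desaturase of the sterol ring (ENSMUSG00000032018, chr9:42162891-42175552), stood at 60.6, 73.6 and 69.8 CPM in bergapten-treated IMQ skin, 64.1, 60.6 and 65.4 CPM in IMQ skin and 31.1, 26.9 and 29.4 CPM in vaseline skin. It rose as well, with no overlap (log2 fold change 1.12, SE 0.10, adjusted p = 1.6e-05). Ebp, which moves a double bond in the ring, stood at 65.6, 74.9 and 68.9 CPM in bergapten-treated IMQ skin, 58.9, 58.4 and 61.2 CPM in IMQ skin and 40.7, 47.3 and 39 CPM in vaseline skin and rose (log2 fold change 0.49, SE 0.09, adjusted p = 0.00191).

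The enzyme that follows Sqle moved the other way. Lss closes squalene epoxide into lanosterol (ENSMUSG00000033105, chr10:76367422-76392972) and stood at 80.0, 103 and 90.3 CPM in bergapten-treated IMQ skin, 103, 64.3 and 81.4 CPM in IMQ skin and 148, 165 and 145 CPM in vaseline skin. All IMQ libraries lay below all vaseline libraries (log2 fold change -0.88, SE 0.16, adjusted p = 0.00154). Msmo1, which oxidises a methyl group of the ring for removal, stood at 118, 176 and 155 CPM in bergapten-treated IMQ skin, 169.8, 175 and 142 CPM in IMQ skin and 272, 296 and 289 CPM in vaseline skin, again without overlap (log2 fold change -0.82, SE 0.14, adjusted p = 0.00109). Hsd17b7, which reduces the ketone left by that removal, stood at 77.2, 105 and 94.3 CPM in bergapten-treated IMQ skin, 111, 89.2 and 85.3 CPM in IMQ skin and 159, 162 and 151 CPM in vaseline skin and also fell (log2 fold change -0.72, SE 0.13, adjusted p = 0.00141). Promoters of Sc5d, which rose, and of Lss and Hsd17b7, which fell, all hold a CCAAT within the window.

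Tm7sf2, a sterol reductase, stood at 19.4, 18.1 and 19.1 CPM in bergapten-treated IMQ skin, 17.9, 14.2 and 14.2 CPM in IMQ skin and 18.8, 21.4 and 19.5 CPM in vaseline skin. It fell (log2 fold change -0.36, SE 0.12, adjusted p = 0.0359), but the call was lost in 8 of 15 alternatives, among them leaving out IMQ replicate 2 (adjusted p = 0.0853) or 3 (0.0748) or vaseline replicate 2 (0.092) or 3 (0.0585), and 532 of its bases are overlapped on its own strand by Vps51. Cyp51, the demethylase that acts on lanosterol, did not pass (log2 fold change -0.07, SE 0.14, adjusted p = 0.73; 95% interval -0.39 to 0.25), and 166 of its bases lie opposite Akap9. Nsdhl, which acts between Msmo1 and Hsd17b7, had a log2 fold change of 0.22 (adjusted p = 0.23). Dhcr7, which makes cholesterol from its last precursor, stood at 85.4, 89.9 and 89.8 CPM in bergapten-treated IMQ skin, 74.1, 117 and 77.3 CPM in IMQ skin and 80.3, 62.9 and 60.2 CPM in vaseline skin. Its highest IMQ library was replicate 2 and the change did not pass (log2 fold change 0.40, SE 0.18, adjusted p = 0.0921). Without that replicate the log2 fold change was 0.16, and with library sizes alone as the scale it was called (0.45, adjusted p = 0.042).

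**Figure D2:**
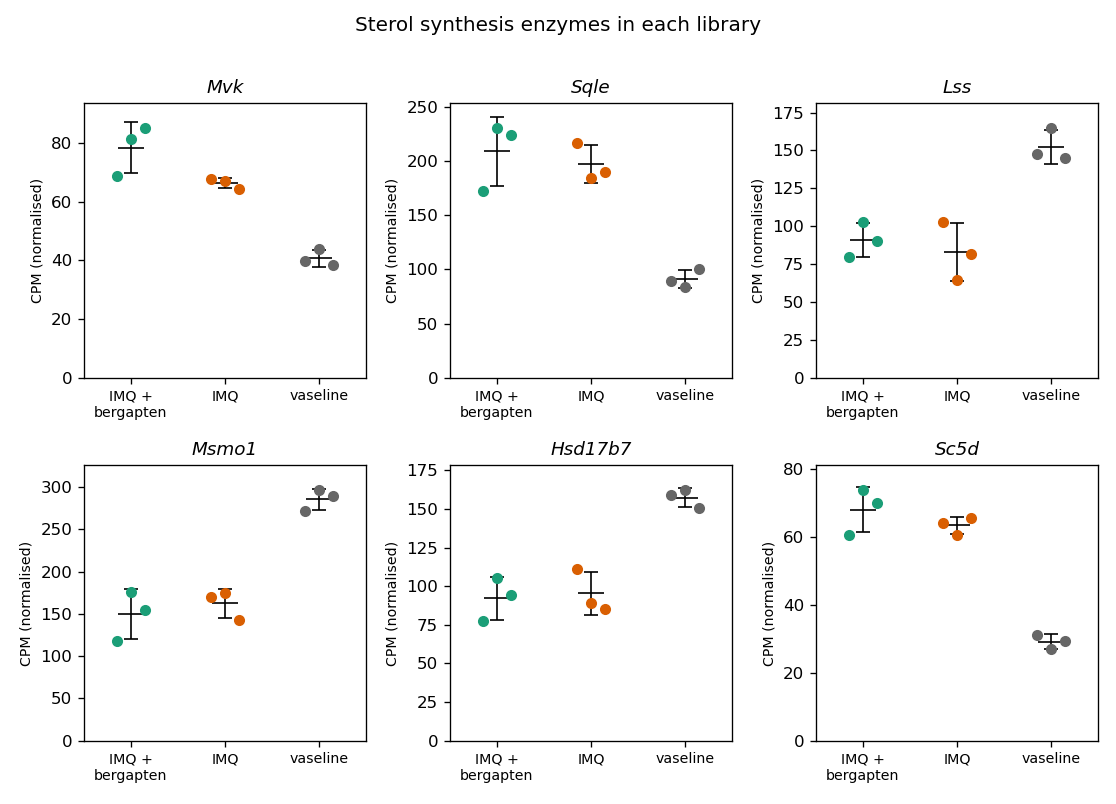
CPM (y axis, from 0) of 6 sterol enzymes in each library, with bergapten-treated IMQ skin at the left, IMQ skin in the middle and vaseline skin at the right of each panel. Points are libraries, long bars group means and short caps 1 SD either side (n = 3). Mvk, Sqle and Sc5d lie higher in both IMQ groups than in vaseline skin, and Lss, Msmo1 and Hsd17b7 lie lower.

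Summed over all 18 sterol enzymes the opposing changes left similar totals. The sum was 1448, 1917 and 1804 CPM in bergapten-treated IMQ skin, 1851, 1594 and 1643 CPM in IMQ skin and 1653, 1766 and 1681 CPM in vaseline skin, and the 3 groups overlapped. Within groups the enzymes tended to share their extremes. Bergapten replicate 1 was the lowest of its group for 17 of 18 enzymes, IMQ replicate 2 for 12, and vaseline replicate 2 was the highest of its group for 13.

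Both SREBP genes changed in IMQ skin, in opposite directions, and 2 of the 5 control genes rose while 2 fell (1 and 2 without IMQ replicate 2). Srebf2, which encodes SREBP-2 (ENSMUSG00000022463, chr15:82031382-82089580), stood at 209, 233 and 249 CPM in bergapten-treated IMQ skin, 208, 211 and 220.3 CPM in IMQ skin and 148, 147 and 151 CPM in vaseline skin. IMQ and vaseline libraries lay far apart relative to their spread (log2 fold change 0.52, SE 0.08, adjusted p = 0.000622). Srebf1, which encodes SREBP-1 (ENSMUSG00000020538, chr11:60089915-60113407), stood at 179, 159.6 and 147 CPM in bergapten-treated IMQ skin, 176, 116 and 123 CPM in IMQ skin and 195, 188 and 183 CPM in vaseline skin. IMQ replicate 1 came close to the vaseline libraries, and the fall (log2 fold change -0.45, SE 0.15, adjusted p = 0.0327) was lost without any 1 of the vaseline replicates (adjusted p 0.0546 to 0.0733), without IMQ replicate 2 (0.079) or 3 (0.0755), in the 6 libraries alone (0.0518) and with library sizes alone as the scale (0.0757). On the opposite strand 109 of its bases lie in Rai1.

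Scap, which escorts the SREBP factors, stood at 105, 97.1 and 111 CPM in bergapten-treated IMQ skin, 104, 109 and 97.4 CPM in IMQ skin and 88.9, 90.7 and 83.9 CPM in vaseline skin. Its rise was small (log2 fold change 0.24, SE 0.08, adjusted p = 0.0365) and was lost in 11 of 15 alternatives, with adjusted p up to 0.179 without vaseline replicate 3, and also without vaseline replicate 1 or 2, IMQ replicate 1 or 2 or any 1 bergapten replicate. Insig1, which retains SCAP and is itself a well-known SREBP target (ENSMUSG00000045294, chr5:28276361-28283660), stood at 55.7, 66.3 and 64.7 CPM in bergapten-treated IMQ skin, 61.3, 44.3 and 50.8 CPM in IMQ skin and 93.6, 94.2 and 99 CPM in vaseline skin. All IMQ libraries lay below all vaseline libraries, at a mean 1.84-fold higher in vaseline skin by the fit (log2 fold change -0.88, SE 0.12, adjusted p = 0.000259).

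Insig2, the second retention protein (ENSMUSG00000003721, chr1:121232082-121260318), stood at 54.7, 50.4 and 44.3 CPM in bergapten-treated IMQ skin, 54.3, 127 and 46.5 CPM in IMQ skin and 139, 134 and 129.5 CPM in vaseline skin. IMQ replicates 1 and 3 held well under the vaseline levels while replicate 2 lay just below them, and the change did not pass with all libraries (log2 fold change -0.82, SE 0.34, adjusted p = 0.085). Without IMQ replicate 2 its log2 fold change was -1.41 (adjusted p = 2.95e-06), and DESeq2 called it lower with all 9 libraries (0.0259). Stard4, a cytosolic carrier that moves cholesterol between membranes (ENSMUSG00000024378, chr18:33332408-33346915), stood at 106, 112 and 111 CPM in bergapten-treated IMQ skin, 94.7, 96.2 and 90.0 CPM in IMQ skin and 43.8, 44.7 and 48.3 CPM in vaseline skin. It rose in IMQ skin with little spread in any group (log2 fold change 1.04, SE 0.07, adjusted p = 4.71e-06), and no alternative took the call away.

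**Figure D3:**
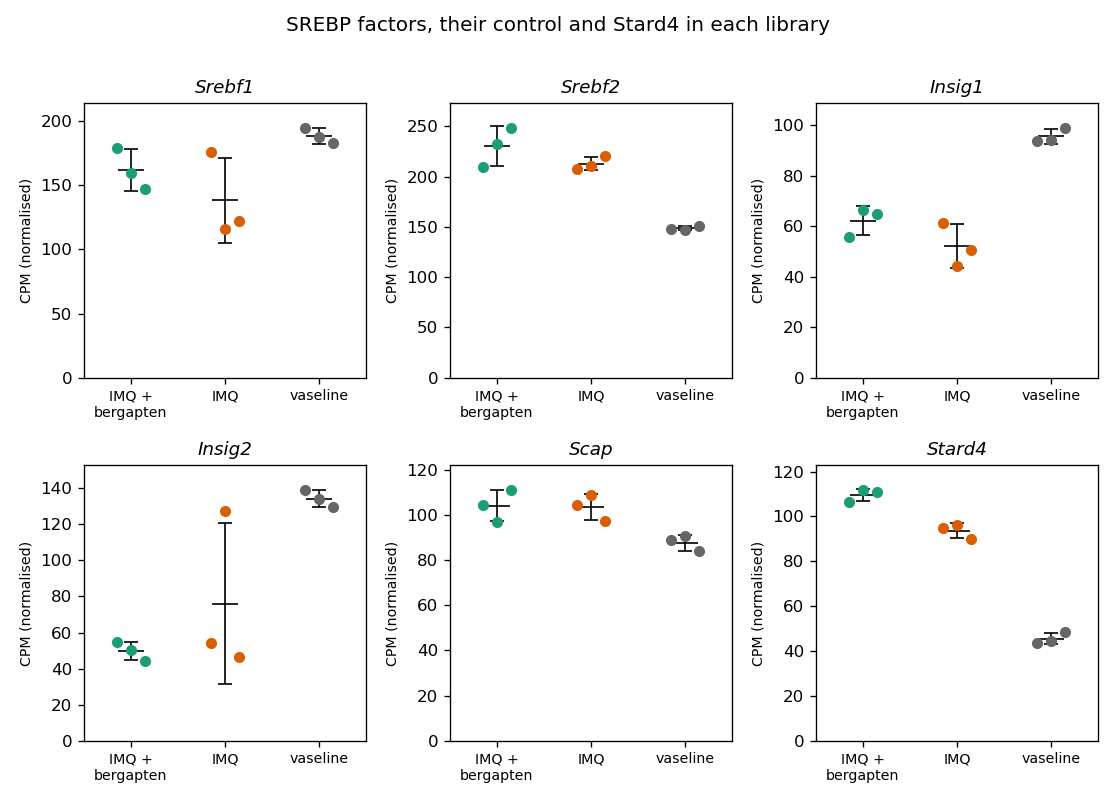
CPM (y axis, from 0) of the SREBP genes, their control genes and Stard4 in each library, with bergapten-treated IMQ skin at the left, IMQ skin in the middle and vaseline skin at the right of each panel. Points are libraries, long bars group means and short caps 1 SD either side (n = 3). Srebf2 and Stard4 lie higher and Insig1 lower in both IMQ groups than in vaseline skin, and IMQ replicate 2, at 127 CPM, stands alone among the IMQ libraries for Insig2.

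Of the 5 fatty acid genes 4 fell in IMQ skin and 0 rose, also with 0 rises at an unadjusted p under 0.05 and 0 by DESeq2, which called all 5 lower. The count was 3 that fell and 0 that rose without IMQ replicate 2. Fasn, fatty acid synthase, which builds palmitate (ENSMUSG00000025153, chr11:120696672-120715373), stood at 1536, 899 and 1047 CPM in bergapten-treated IMQ skin, 459.6, 206 and 264 CPM in IMQ skin and 1783, 991 and 1092 CPM in vaseline skin. The highest IMQ library held less than the lowest vaseline library, and the mean was 4.16-fold higher in vaseline skin by the fit (log2 fold change -2.06, SE 0.37, adjusted p = 0.00259). This was the largest absolute log2 fold change of the 29 genes in this comparison, and it held in all 15 alternatives.

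Me1, which yields NADPH for the pathway, stood at 236, 205 and 210.4 CPM in bergapten-treated IMQ skin, 162, 183 and 144 CPM in IMQ skin and 360.1, 257 and 279.5 CPM in vaseline skin. It fell (log2 fold change -0.88, SE 0.14, adjusted p = 6e-04), as did Acss2, which makes acetyl-CoA from acetate and stood at 28.6, 31 and 31 CPM in bergapten-treated IMQ skin, 31.1, 20.0 and 27.5 CPM in IMQ skin and 55, 45.6 and 41.2 CPM in vaseline skin (log2 fold change -0.85, SE 0.16, adjusted p = 0.00199). The opposite strand of Acss2 holds Gss over 22544 bases, with a mean of 271 reads in IMQ skin and 200.3 in vaseline skin. Acly, which cuts citrate to give acetyl-CoA, stood at 392, 362 and 399.5 CPM in bergapten-treated IMQ skin, 326, 263 and 287 CPM in IMQ skin and 493, 342 and 335 CPM in vaseline skin. Its fall (log2 fold change -0.42, SE 0.15, adjusted p = 0.042) was lost without vaseline replicate 1 (adjusted p = 0.109), without IMQ replicate 2 (0.107) or 3 (0.0711), in the 6 libraries alone (0.074) and with library sizes alone as the scale (0.0926).

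Acaca, the carboxylase that makes malonyl-CoA for Fasn, stood at 231, 167 and 185 CPM in bergapten-treated IMQ skin, 130.4, 80.1 and 116 CPM in IMQ skin and 272, 116 and 146 CPM in vaseline skin. Vaseline replicate 1 held more than the other vaseline libraries together, and the groups overlapped (log2 fold change -0.71, SE 0.32, adjusted p = 0.11). The log2 fold change was -0.30 without vaseline replicate 1 and -0.97 without vaseline replicate 2 (adjusted p = 0.327 and 0.0379), the ends of its range when each library was left out, and DESeq2 called it lower (0.0414). Summed over the 5 fatty acid genes the level was 2424, 1664 and 1873 CPM in bergapten-treated IMQ skin, 1109, 752 and 838 CPM in IMQ skin and 2963, 1752 and 1894 CPM in vaseline skin. Every IMQ sum lay below every sum of the other groups. Replicate 1 was the highest of its group for all 5 genes in vaseline skin, for 4 in IMQ skin and for 3 in bergapten-treated IMQ skin.

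Markers of lipid-rich and other cells are set beside these changes, and their part in the results was not tested. Of all genes tested 23% rose and 20.2% fell in this comparison. Of 10 sebaceous gland markers 9 fell in IMQ skin, with a median log2 fold change of -2.96 and summed levels of 577 to 2693 CPM in IMQ skin and 2917 to 3333 CPM in vaseline skin. Krt79, at 2367 CPM, made up most of the sum of IMQ replicate 2. Of 9 adipocyte markers 2 fell (22.2%), close to the share of all genes, while 5 were lower and 0 higher at an unadjusted p under 0.05. Their median log2 fold change was -1.10, with 8 markers below 0 and 1 above. Their sums were 895 to 4132 CPM in IMQ skin and 6773 to 6840 CPM in vaseline skin. Lep was at 0 reads in IMQ replicate 2, the only marker at 0 in any library. All 8 keratinocyte markers found in the table rose, with sums of 21250 to 26830 CPM in IMQ skin and 8446 to 9219 CPM in vaseline skin. All 8 proliferation genes rose, with sums of 162 to 446 CPM in IMQ skin and 122 to 158 CPM in vaseline skin. Of 8 fibroblast markers 7 fell and 1 rose, with sums of 9391 to 22000 CPM in IMQ skin and 108000 to 116300 CPM in vaseline skin. All 8 skeletal muscle markers fell, with sums of 4311 to 5550 CPM in IMQ skin and 15150 to 16580 CPM in vaseline skin. Of 7 neutrophil markers 6 rose, with sums of 3867 to 9657 CPM in IMQ skin and 35.4 to 47 CPM in vaseline skin. Of 6 macrophage markers 2 rose (33.3%), with sums of 1802 to 2761 CPM in IMQ skin and 1688 to 1967 CPM in vaseline skin. Without IMQ replicate 2 the counts were 10 sebaceous, 3 adipocyte and 6 fibroblast markers that fell, and those of the other lists were the same.

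**Figure D4:**
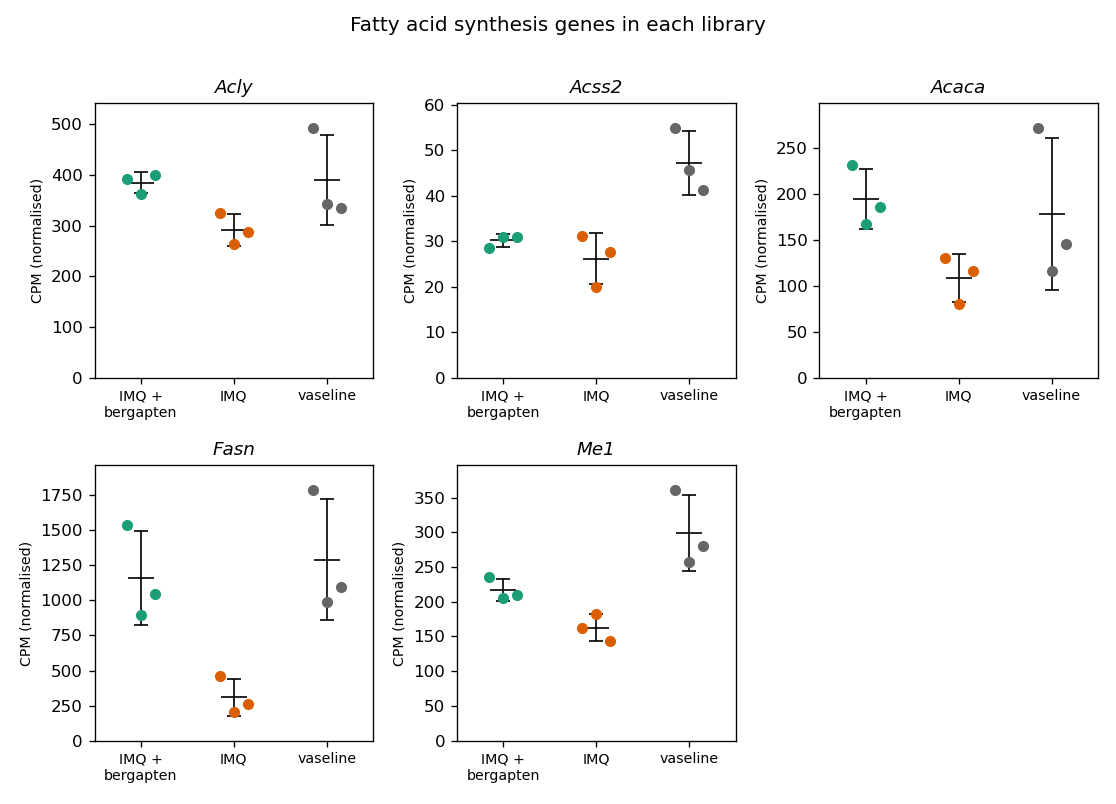
CPM (y axis, from 0) of the 5 fatty acid genes in each library, with bergapten-treated IMQ skin at the left, IMQ skin in the middle and vaseline skin at the right of each panel. Points are libraries, long bars group means and short caps 1 SD either side (n = 3). IMQ skin lies lowest for Fasn, at 206 to 459.6 CPM, against 899 to 1783 CPM in the libraries of the other groups.

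With bergapten, Fasn was the gene of the 29 that passed against IMQ skin. In bergapten-treated IMQ skin 1 of the 29 genes rose and 0 fell against IMQ skin, where 2.18% of all genes tested rose and 2.65% fell (4.83% were called in all). The 0 stayed 0 at an unadjusted p under 0.05 and by DESeq2, while 8 genes had an unadjusted p under 0.05 in the upward direction. The median log2 fold change of the 29 genes was 0.11, beside -0.005 over all genes tested. Leaving out IMQ replicate 2, 0 rose and 0 fell. Levels did not overlap between the groups for 8 of the 29 (27.6%), close to the 26.4% of all genes tested.

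The gene that rose was Fasn, at 1536, 899 and 1047 CPM in bergapten-treated IMQ skin and 459.6, 206 and 264 CPM in IMQ skin. The lowest bergapten library held more than the highest IMQ library, and the mean was 3.74-fold higher by the fit (log2 fold change 1.91, SE 0.37, adjusted p = 0.0312; 95% interval 1.06 to 2.75). The log2 fold change lay between 1.65 and 2.30 in all 15 alternatives, and the call was lost in 8 of them: without any 1 bergapten replicate (0.104, 0.0565 and 0.0875 for replicates 1, 2 and 3), without IMQ replicate 2 (0.0811) or 3 (0.0592), without vaseline replicate 3 (0.0523), in the 6 libraries alone (0.058) and with no filter on low counts (0.0797). DESeq2 gave an adjusted p of 1.51e-07.

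The other 4 fatty acid genes had higher means in bergapten-treated IMQ skin, and 3 of them had no overlap with IMQ skin. Acaca had a log2 fold change of 0.84 (SE 0.32, adjusted p = 0.178), and passed by DESeq2 (0.0434). Me1 had a log2 fold change of 0.42 (adjusted p = 0.109), Acly 0.40 (adjusted p = 0.152) and Acss2 0.20 (adjusted p = 0.497). Within the bergapten group, replicate 1 was the highest for Fasn, Acaca and Me1 although it was the lowest for 17 of 18 sterol enzymes.

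None of the 18 sterol enzymes passed between bergapten-treated IMQ skin and IMQ skin by edgeR or by DESeq2, and 3 of them, Mvk, Tm7sf2 and Ebp, had an unadjusted p under 0.05, all with higher means in bergapten-treated IMQ skin. Mvk had a log2 fold change of 0.24 (95% interval 0.03 to 0.45, adjusted p = 0.178), Tm7sf2 of 0.29 (0.01 to 0.56, 0.206) and Ebp of 0.23 (0.03 to 0.44, 0.18). Sqle, at 173, 231 and 224 CPM in bergapten-treated IMQ skin and 217, 185 and 189.5 CPM in IMQ skin, had a log2 fold change of 0.09 with an interval of -0.19 to 0.36.

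The SREBP control genes did not pass either. Srebf1 had a log2 fold change of 0.23 (adjusted p = 0.399; 0.0467 without IMQ replicate 1), Srebf2 of 0.11 (adjusted p = 0.444) and Insig1 of 0.26 (adjusted p = 0.236). Insig2 had the lowest value of the 29 genes, -0.61 (adjusted p = 0.335), with IMQ replicate 2, at 127 CPM, above the other 5 libraries, which lay at 44.3 to 54.7 CPM. Stard4 stood at 106, 112 and 111 CPM in bergapten-treated IMQ skin and 94.7, 96.2 and 90.0 CPM in IMQ skin, without overlap, and its log2 fold change of 0.23 did not pass (adjusted p = 0.102).

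Beside the change of Fasn, 0 of 10 sebaceous and 0 of 9 adipocyte markers passed edgeR's test between bergapten-treated IMQ skin and IMQ skin, and 0 of each were at an unadjusted p under 0.05. Of all genes tested 2.18% rose and 2.65% fell there. Summed sebaceous levels were 629 to 993 CPM in bergapten-treated IMQ skin and 577 to 2693 CPM in IMQ skin. Summed adipocyte levels were 2646 to 3310 CPM in bergapten-treated IMQ skin and 895 to 4132 CPM in IMQ skin. Summed fibroblast levels did not overlap, at 25780 to 33430 CPM in bergapten-treated IMQ skin and 9391 to 22000 CPM in IMQ skin, with 7 of the 8 markers at a higher mean and 6 of these at an unadjusted p under 0.05, of which 1 rose, while 1 other fell. Proliferation genes had sums of 510 to 617 CPM in bergapten-treated IMQ skin and 162 to 446 CPM in IMQ skin, with 0 of 8 called and 2 at an unadjusted p under 0.05. Of the skeletal muscle markers 1 rose and 2 fell, and their sums did not overlap either, at 3890 to 4149 CPM in bergapten-treated IMQ skin and 4311 to 5550 CPM in IMQ skin. Of the neutrophil markers 2 fell, with sums of 2792 to 6748 CPM in bergapten-treated IMQ skin and 3867 to 9657 CPM in IMQ skin. Of the keratinocyte markers 1 fell, with sums of 26460 to 28080 CPM in bergapten-treated IMQ skin and 21250 to 26830 CPM in IMQ skin. Of the macrophage markers 0 were called and 2 had an unadjusted p under 0.05, with sums of 2645 to 3124 CPM in bergapten-treated IMQ skin and 1802 to 2761 CPM in IMQ skin. Without IMQ replicate 2 the counts were 1 proliferation gene that rose, 2 muscle markers that rose and 3 that fell, 0 fibroblast markers that rose and 1 that fell and 1 macrophage marker that fell, with those of the other lists the same. The part of any of these in the Fasn value was not tested.

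Bergapten-treated IMQ skin was also set against vaseline skin, and this comparison shares the vaseline libraries with the first and the bergapten libraries with the second. Of the 29 genes 9 rose and 7 fell, where 20.9% of all genes tested rose and 19.5% fell (40.4% were called in all). Without IMQ replicate 2, which is in neither of these groups but enters the filter, the scaling and the shared spread, 12 rose and 7 fell, and with library sizes alone as the scale 12 rose and 6 fell, a scale that moved the median log2 fold change of all genes by 0.101. The median of the 29 genes was -0.005, beside 0.007 over all genes tested. Levels did not overlap for 20 of the 29 genes (69%), against 59.2% of all genes tested.

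**Figure D5:**
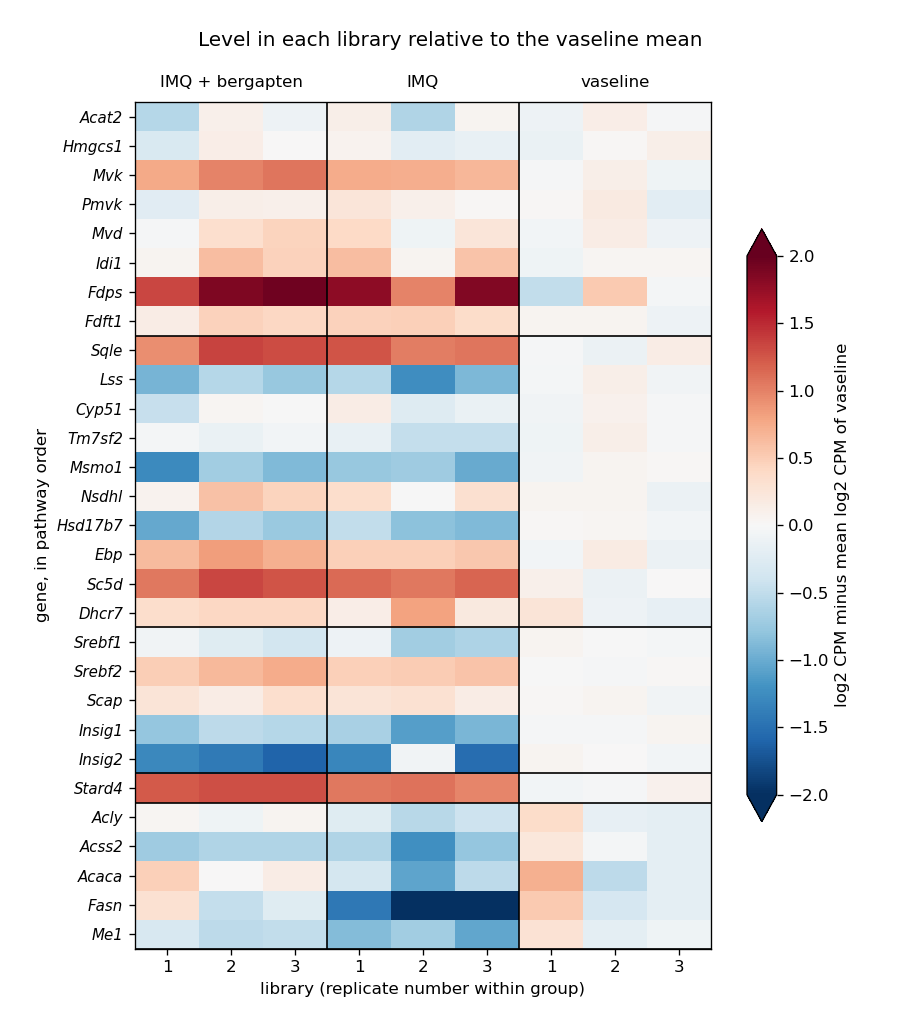
Level of each of the 29 genes (rows, in pathway order) in each library (columns, grouped as bergapten-treated IMQ skin, IMQ skin and vaseline skin), as log2 CPM minus the mean log2 CPM of vaseline skin, with red higher and blue lower and colours capped at 2. The Sqle, Sc5d and Stard4 rows are red and the Lss, Msmo1 and Hsd17b7 rows blue in both IMQ groups, while the Fasn row is dark blue in IMQ skin and pale in bergapten-treated IMQ skin.

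The 9 genes that rose in IMQ skin were also the 9 that rose in bergapten-treated IMQ skin against the same vaseline libraries. Stard4 rose with a log2 fold change of 1.27 (adjusted p = 2.27e-06), Sc5d of 1.22 (adjusted p = 1.22e-05), Sqle of 1.20 (adjusted p = 6.47e-05) and Mvk of 0.95 (adjusted p = 5.87e-05). Ebp rose with 0.72, Srebf2 with 0.63 and Fdps, with the limits on its reads given above, with 1.69. The calls of Fdft1 (0.35) and Scap (0.25) were lost in 3 and 10 of the 15 alternatives: Fdft1 without vaseline replicate 3 or bergapten replicate 2 or 3 (adjusted p 0.0808 to 0.0972), and Scap without any 1 vaseline or bergapten replicate or IMQ replicate 1 or 3 (adjusted p 0.0505 to 0.191), with no filter (0.0821) and with a replicate block (0.0648).

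Of the genes that fell in IMQ skin, Acss2, Hsd17b7, Insig1, Lss, Me1 and Msmo1 also fell in bergapten-treated IMQ skin. Msmo1 fell by the most of the sterol enzymes (log2 fold change -0.93, SE 0.14, adjusted p = 0.000555), with Hsd17b7 at -0.77 and Lss at -0.74. Insig1 had a log2 fold change of -0.62 and Acss2 of -0.65. Me1, at -0.46, lost the call without vaseline replicate 1 (adjusted p = 0.0561), without bergapten replicate 2 (0.0596) or 3 (0.0566) and with library sizes alone as the scale (0.0515).

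Insig2 fell here, at 44.3 to 54.7 CPM in bergapten-treated IMQ skin against 129.5 to 138.8 CPM in vaseline skin (log2 fold change -1.43, SE 0.35, adjusted p = 0.0115). Acly, Fasn, Srebf1 and Tm7sf2, which fell in IMQ skin, did not pass in this comparison. Fasn had a log2 fold change of -0.15 (adjusted p = 0.768) with a 95% interval of -0.97 to 0.66, and the sign turned without vaseline replicate 1 (0.12). Acly had -0.02 with an interval of -0.35 to 0.31, and Acaca, which passed in none of the 3 comparisons, 0.13 with an interval of -0.61 to 0.86. These intervals leave room for changes of either sign and do not show that the levels were alike.

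Set against each other per kilobase of gene length, as the authors' FPKM, the genes took different places in the 3 groups. Fasn was the highest of the 29 in bergapten-treated IMQ skin, at a mean of 119.9 ± 37 FPKM (SD, n = 3), 14th in IMQ skin at 31.1 ± 13.9 FPKM and the highest in vaseline skin at 123.8 ± 42.6 FPKM. In IMQ skin Acly led with a mean of 66.2 FPKM and Hmgcs1 followed with 64.1 FPKM. Sqle was 6th in bergapten-treated IMQ skin with 48.3 FPKM, 7th in IMQ skin with 44.2 FPKM and 22nd in vaseline skin with 19.6 FPKM. Insig2 was 24th in bergapten-treated IMQ skin with 19.1 FPKM, 18th in IMQ skin with 27.8 FPKM and 7th in vaseline skin with 47.9 FPKM. Fdps was the last in all 3 groups, at 3.41 FPKM in bergapten-treated IMQ skin, 3.01 FPKM in IMQ skin and 0.989 FPKM in vaseline skin.

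Other genes of the pathway that are not among the 29 were read from a list of 40, of which 39 were tested and Idi2 had too few reads. In IMQ skin 8 rose (20.5%) and 14 fell (35.9%) against vaseline skin, beside 23% and 20.2% of all genes tested. Without IMQ replicate 2 the counts were 6 and 14. Of the 12 genes that elongate, desaturate or activate fatty acids 3 rose and 6 fell. Elovl6, which elongates palmitate, the product of Fasn, stood at 109.6, 187 and 93.4 CPM in bergapten-treated IMQ skin, 148, 92.2 and 72.5 CPM in IMQ skin and 645, 491 and 591 CPM in vaseline skin and fell (log2 fold change -2.47, SE 0.34, adjusted p = 0.000616). The desaturases moved apart: Scd1 fell (log2 fold change -1.72, SE 0.32, adjusted p = 0.00307) and Scd2 rose (log2 fold change 1.64, SE 0.11, adjusted p = 2.84e-06). Acacb, the mitochondrial counterpart of Acaca, fell (log2 fold change -0.92, SE 0.19, adjusted p = 0.00335).

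Among 10 genes of sterol sensing, efflux and storage 4 rose and 1 fell in IMQ skin. Abcg1, a sterol exporter, rose with a log2 fold change of 1.78 and Abca1, another, with 0.46. Mylip, a ubiquitin ligase for lipoprotein receptors, rose with 0.55, and Lpcat3, which edits phospholipid chains, fell with -1.17. Of 9 tested genes of isoprenoid and acetyl unit supply 5 fell: Mlxipl, a glucose-responsive activator of lipid synthesis (-1.42), Gpam, which starts triglyceride assembly (-1.24), Slc25a1, which carries citrate out of mitochondria to Acly (-1.21), Acat1, the mitochondrial thiolase (-0.70), and Aacs, which activates acetoacetate (-0.60). Of 8 further genes of SREBP control Erlin1, which holds the complex in the endoplasmic reticulum, rose (0.47), and Tmem97, a sterol-binding membrane protein (-0.73), and Mbtps1, the protease that first cuts the SREBP factors (-0.36), fell.

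Between bergapten-treated IMQ skin and IMQ skin 1 of these 39 genes rose (2.56%) and 3 fell (7.69%), beside 2.18% and 2.65% of all genes tested. Without IMQ replicate 2 the counts were 1 and 2. Slc25a1 rose, at 138, 107 and 117 CPM in bergapten-treated IMQ skin and 80.8, 60.8 and 65.5 CPM in IMQ skin (log2 fold change 0.81, SE 0.15, adjusted p = 0.0218). Acacb fell, at 78.2, 78.8 and 70.6 CPM in bergapten-treated IMQ skin and 185, 177 and 104 CPM in IMQ skin (log2 fold change -1.03, SE 0.19, adjusted p = 0.0196), so that its bergapten libraries lay below those of IMQ skin, which already lay below vaseline skin. Acsl3, which activates fatty acids, fell with a log2 fold change of -0.51 (adjusted p = 0.0346), and Mylip with -0.36 (adjusted p = 0.0249). Scd1 did not pass, at 1617, 1589 and 1209 CPM in bergapten-treated IMQ skin and 1427, 1010 and 568 CPM in IMQ skin (log2 fold change 0.56, SE 0.31, adjusted p = 0.343), nor did Elovl6 (log2 fold change 0.32, SE 0.32, adjusted p = 0.607).

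In bergapten-treated IMQ skin against vaseline skin 5 of the 39 rose (12.8%) and 12 fell (30.8%), beside 20.9% and 19.5% of all genes tested. Without IMQ replicate 2 the counts were 6 and 16. Elovl6 (-2.15), Acacb (-1.95), Mlxipl (-1.37), Lpcat3 (-1.24), Scd1 (-1.17) and Gpam (-1.06) had the lowest log2 fold changes among those that fell, and Scd2 (1.71) and Abcg1 (1.64) the highest among those that rose. Slc25a1 did not pass there (log2 fold change -0.41, SE 0.15, adjusted p = 0.0562).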

How the data were processed

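RNA of whole back skin was sequenced in 9 libraries, 3 in each of 3 groups. Per the submitters' processing notes, Trimmomatic, HISAT2 and HTSeq 0.6.0 were used with GRCm39. Handling of strand and of reads with several alignments is not given in the sources used here. The authors deposited raw read counts per gene and FPKM values. The deposited FPKM values give back 1 gene length per gene that differs from the deposited length column, and serve here only to order genes within a group. The authors also deposited raw read counts per library.

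Counts of 56859 genes (2 rows naming no gene were left out) were filtered with filterByExpr, leaving 18005, scaled by TMM and fitted in edgeR 4.0.16 (R 4.3.3) with 1 mean per group over all 9 libraries. Robust quasi-likelihood tests were adjusted by Benjamini-Hochberg over all 18005 genes, with a threshold of 0.05. Log2 fold changes have their SE from the F statistic and a 95% interval. The tests were run on simulated counts with the same spread in all groups, which does not cover a library that stands apart, as IMQ replicate 2 did. No 2 libraries were identical.

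The 29 genes and all lists were chosen with earlier results of these data known. All 29 are accounted for. Of other pathway genes, up to 4 called per list and comparison with the largest absolute change are named, plus Aacs and values set beside them. Alternatives were RLE scaling, library sizes alone, DESeq2 1.42.0, no filter, the 6 libraries compared, a replicate block and leaving out each library.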

Additional observations from a re-analysis of the deposited data

How the results depend on the processing

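Of the calls made on the 29 genes, 15 of 19 in IMQ skin against vaseline skin and 13 of 16 in bergapten-treated IMQ skin against vaseline skin held in all 15 alternatives, and the single call in bergapten-treated IMQ skin against IMQ skin held in 7 of them. No gene that was called changed sign in any of them. Against IMQ skin, the genes called in bergapten-treated IMQ skin over the whole table numbered 869, and 1803 by DESeq2, 130 in the 6 libraries alone, 489 with a replicate block and 139 to 1711 when each library was left out. The members that rose there numbered 1, and 2 by DESeq2 (Fasn and Acaca), 0 with no filter, 0 in the 6 libraries alone, 2 with a replicate block (Fasn and Acaca) and 0 to 2 when each library was left out. In the other comparisons every count over the whole table and over the members stayed within 1.5 times under all 15 alternatives. Genes that were not called changed sign in some settings. With library sizes alone, Dhcr7 was at 0.037 in bergapten-treated IMQ skin against IMQ skin, and Hmgcs1 at 0.055, Pmvk at 0.096, Tm7sf2 at 0.026 and Acly at 0.079 in bergapten-treated IMQ skin against vaseline skin. Leaving out each library gave log2 fold changes of either sign for these genes: in IMQ skin against vaseline skin, Acat2 -0.27 to 0.085, Pmvk -0.01 to 0.18 and Cyp51 -0.22 to 0.02; in bergapten-treated IMQ skin against IMQ skin, Acat2 -0.25 to 0.11, Hmgcs1 -0.052 to 0.16, Mvd -0.061 to 0.18, Idi1 -0.20 to 0.10, Fdps -0.076 to 0.31, Lss -0.015 to 0.32, Cyp51 -0.16 to 0.074, Msmo1 -0.26 to 0.023, Hsd17b7 -0.16 to 0.075, Dhcr7 -0.14 to 0.22 and Scap -0.041 to 0.051; in bergapten-treated IMQ skin against vaseline skin, Hmgcs1 -0.18 to 0.038, Pmvk -0.14 to 0.062, Acly -0.16 to 0.15, Acaca -0.14 to 0.54 and Fasn -0.44 to 0.12. The cause was not tested. Over all genes tested, replicate numbers gave no clear sign of pairing, though so few libraries cannot exclude it. Deviations from group means correlated at -0.091 to 0.176 between libraries of the same number and at -0.175 to 0.115 between those of different numbers. Fasn and Acaca, however, were highest in replicate 1 and lowest in replicate 2 in every group, as was the sum of the fatty acid genes. Whether pairing underlies this order was not tested. With the replicate block 7263 and 6740 genes were called in IMQ skin and in bergapten-treated IMQ skin against vaseline skin, with 18 and 15 members. Acaca, not called without the block, was called lower with it in IMQ skin against vaseline skin (-0.65, adjusted p = 0.0124). With the block it was also called higher in bergapten-treated IMQ skin against IMQ skin (0.86, adjusted p = 0.0359). Without any one library an arm of 2 shares the spread of the others. Fdps, with 38 to 220 reads a library, is the least deeply counted of the 29 genes, and 3 libraries a group limit how small a change can pass.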
